A study of Mus musculus with 8 samples.

Results

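The 10 genes described here encode the NF-kB transcription factor subunits and the proteins that hold them in check: the subunit genes Nfkb1, Nfkb2, Rel, Rela and Relb, the inhibitor genes Nfkbia and Nfkbie, the nuclear regulators Nfkbiz and Bcl3, and the feedback gene Tnfaip3. They were found by symbol among the 27679 genes of the count table, and all 10 were among the 13845 genes with enough counts to be tested. Expression was measured by polyA RNA-seq in megakaryocytes, the large marrow cells that shed platelets, from wild-type C57BL/6 mice. Marrow was cleared magnetically of cells carrying lineage markers. The remaining cells grew for 3 days either in liquid medium (4 libraries) or in methylcellulose gel at 2%, whose Young modulus was 30 to 60 Pa (4 libraries), and the large mature ones were then collected on a BSA gradient of 2 to 4%. The series title speaks of mechanical confinement, for which the hydrogel stands in this comparison. Whether the gel acted by confinement was not tested. The submitters describe the 4 cultures of each kind as independent biological replicates, and no gene was altered in either group.

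NF-kB proteins bind DNA as pairs of Rel-family subunits. In resting cells the inhibitors of the IkB family keep most pairs in the cytoplasm. Signals from Toll-like, interleukin-1 and tumour necrosis factor receptors activate the IKK kinases, the inhibitor is destroyed, and the canonical pair of Rela and the processed Nfkb1 product enters the nucleus. A slower, noncanonical route runs through the processed Nfkb2 product and Relb. Many of the pathway's own genes, Nfkbia and Tnfaip3 among them, are known targets of NF-kB, which makes the pathway switch itself off.

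Promoters of 7 of the 10 genes were present in the RefSeq table used (build GRCm38.p6, 250 bases before to 50 after each annotated start), as 10 windows of 300 bases, because Nfkb2 had 3 annotated starts and Tnfaip3 2. The kappa-B consensus, searched on both strands, was present in 8 of the 10 windows, beside 4.51% of all 32851 promoter windows in the table. Of the 7 genes, only Rela had no match in any window. A pair of the Nfkb2 windows overlap and share a match, so the 10 windows are not independent. A looser pattern that contains the consensus (3 G, any 5 bases, then 2 C, on either strand) was present in all 10, and in 50.8% of all windows. The GC content of the 10 windows ranged from 47.0 to 75.0%. The 4 windows below were chosen by motif content and by size of change in these cultures. Bcl3 and Nfkb2 were higher in hydrogel, whereas Nfkbia and Rela did not pass the test. Not shown are windows with matches of Rel, which was higher, and of Nfkbie and Tnfaip3, which did not pass. Windows chosen in this way say nothing on a link between matches and change, which was not tested. Letters in capitals mark matches to the kappa-B consensus on either strand, and overlapping matches run together.
Bcl3, chr7:19822706-19823005, minus strand: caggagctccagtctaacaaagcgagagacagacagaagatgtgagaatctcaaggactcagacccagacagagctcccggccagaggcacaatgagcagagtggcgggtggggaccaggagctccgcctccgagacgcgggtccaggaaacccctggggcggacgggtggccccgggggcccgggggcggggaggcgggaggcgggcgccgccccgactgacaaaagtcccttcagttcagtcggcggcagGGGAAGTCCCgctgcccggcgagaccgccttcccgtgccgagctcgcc
Nfkb2, chr19:46304487-46304786, plus strand: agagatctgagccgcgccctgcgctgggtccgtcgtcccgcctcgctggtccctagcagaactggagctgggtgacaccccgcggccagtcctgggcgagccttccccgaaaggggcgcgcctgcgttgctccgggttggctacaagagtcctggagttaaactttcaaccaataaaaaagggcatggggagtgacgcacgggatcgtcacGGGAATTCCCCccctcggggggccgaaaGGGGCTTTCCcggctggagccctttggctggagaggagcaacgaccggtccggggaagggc
Nfkbia, chr12:55492598-55492897, minus strand: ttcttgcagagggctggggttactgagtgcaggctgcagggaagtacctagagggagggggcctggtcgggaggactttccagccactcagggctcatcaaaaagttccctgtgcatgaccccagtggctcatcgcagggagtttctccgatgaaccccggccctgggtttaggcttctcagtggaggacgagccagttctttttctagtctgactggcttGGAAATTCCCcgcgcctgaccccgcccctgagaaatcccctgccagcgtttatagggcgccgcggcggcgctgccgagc
Rela, chr19:5637291-5637590, plus strand: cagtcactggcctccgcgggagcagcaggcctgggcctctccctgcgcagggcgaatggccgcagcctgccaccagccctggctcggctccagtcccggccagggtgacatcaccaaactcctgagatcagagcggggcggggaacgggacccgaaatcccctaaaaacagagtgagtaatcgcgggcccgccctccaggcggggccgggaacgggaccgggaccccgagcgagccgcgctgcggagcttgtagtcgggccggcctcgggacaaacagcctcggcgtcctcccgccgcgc
The Bcl3 match began 3 bases into the transcript. In Nfkb2, 3 overlapping matches formed a single stretch. The same letters, from 39 bases before the start, matched on both strands and were counted on each. The third match, on the opposite strand, lay from 38 bases before the start. Another match lay 11 bases before the start. The Nfkbia match lay 29 bases before the start, and the Rela window held no match. A match is a run of letters and not a measured binding site.

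Hydrogel cultures had more transcript of the subunit genes Rel, Nfkb2, Relb and Nfkb1 and much more of Bcl3. Rela, the subunit transcript with the highest mean level in both cultures, stood at the same level in both within a narrow interval. Of the 10 genes, 5 rose and 0 fell in edgeR's quasi-likelihood test (Benjamini-Hochberg adjusted p under 0.05 over all tested genes). Among all tested genes 15.1% rose and 14.1% fell (2096 and 1956 genes, or 1755 and 2492 with upper-quartile scaling, under which the same number of the 10 was called). At an unadjusted p under 0.05, 6 were higher and 0 lower in edgeR, where 20.2% of all tested genes were higher. DESeq2 called 6 higher and 0 lower (16.8% of all tested genes higher), and limma-voom 5 and 0 (15.5%). Without a filter on low counts 5 were called higher, where 7.14% of all genes were, and at an adjusted p under 0.01 the calls were 2, where 8.52% were. Leaving out both hydrogel 1 and liquid 2, whose macrophage markers stood apart, 6 were higher, where 21.6% of all tested genes were. The count fell to 2 without hydrogel 2 (background 10.4%), hydrogel 3 (10.8%) or liquid 4 (11.3%), and to 4 without hydrogel 4 (11.6%), liquid 1 (12.1%) or liquid 3 (12.7%). The median log2 change of the 10 genes was 0.35, against −0.01 for all tested genes. In 3 of them, Nfkb1, Nfkb2 and Bcl3, every hydrogel library lay above every liquid library, as did 14.6% of all tested genes.

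**Figure D1:**
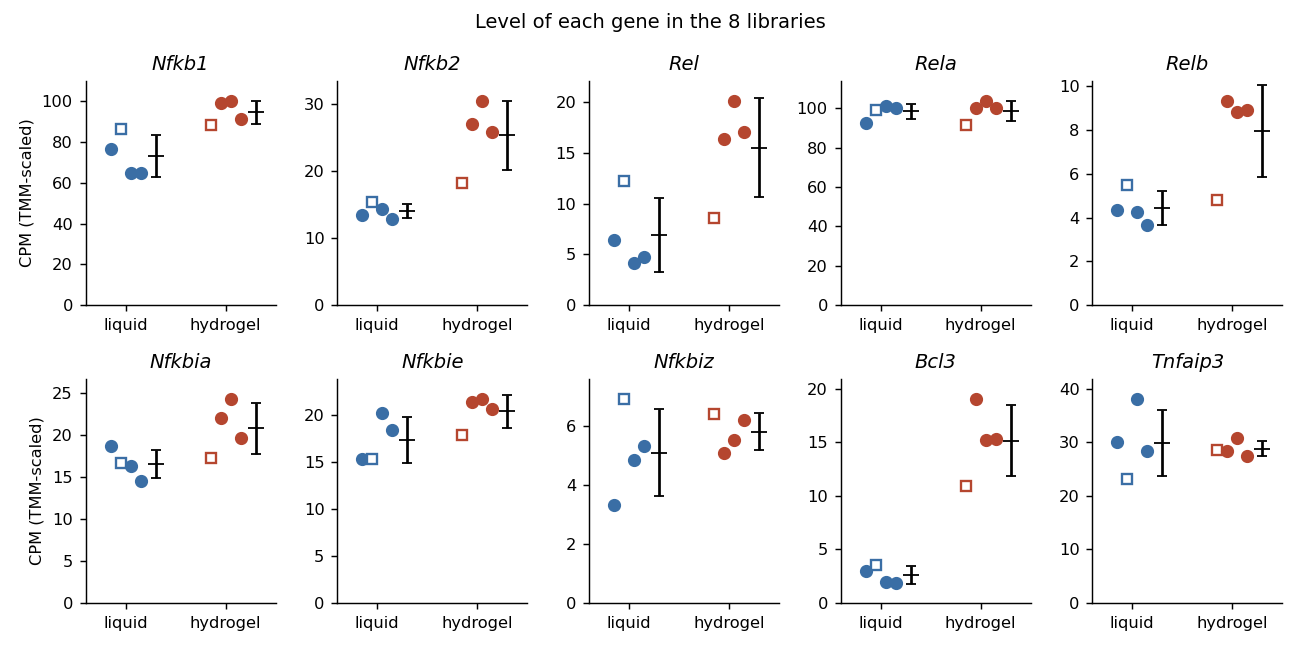
Level of each of the 10 genes in CPM (y axes, linear from 0; counts scaled to a common library size) in the 4 liquid (blue) and 4 hydrogel (red) libraries, with mean and SD beside them. Open squares mark liquid 2 and hydrogel 1, which lay between the other libraries for all 5 genes that rose. The cultures overlapped for Rel and Relb, and did not for Nfkb1, Nfkb2 and Bcl3.

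Libraries held 27012172 to 49281611 counts. Levels are given as CPM, counts scaled to a common library size. All 16 megakaryocyte markers were detected and tested, with a summed level of 28469 to 41380 CPM in hydrogel and 34277 to 56010 CPM in liquid. Of these, 11 fell and 5 did not pass. Of 20 monocyte and macrophage markers, 15 rose and 4 tested markers did not pass, and their summed level was 4288 to 9274 CPM in hydrogel against 1163 to 2523 CPM in liquid. Cd163 was the marker with too few counts for a test, and none of the 20 was at 0 in all libraries. A pair of libraries stood apart within its culture: hydrogel 1 had a summed macrophage level of 4288 CPM where the other hydrogel libraries had 7725 to 9274 CPM, and liquid 2 had 2523 CPM where the other liquid libraries had 1163 to 1443 CPM. In such bulk samples, more cells of a type and more RNA per cell cannot be told apart. Results are therefore also given without both of these libraries, and with the mean centred log2 CPM of the macrophage markers as a covariate. Culture accounted for 81.6% of the variance of that score (an inflation factor of 5.45), so the fit with the covariate has little independent variation left to measure culture.

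Rel (ENSMUSG00000020275) encodes c-Rel, the subunit best known from lymphocytes and myeloid cells, and its transcript had the largest rise among the 5 subunit genes. It stood at 8.63, 16.4, 20.1 and 17.0 CPM in hydrogel 1 to 4 and at 6.45, 12.2, 4.20 and 4.73 CPM in liquid 1 to 4. The cultures overlapped, because hydrogel 1 lay below liquid 2. The mean rose from 6.90 ± 3.66 to 15.5 ± 4.87 CPM (SD, n = 4 each), a log2 change of 1.18 ± 0.35 SE (2.26-fold; adjusted p = 0.0308 by edgeR). This call was lost in 6 of the 8 omissions of a single library, where the adjusted p ranged from 0.0717 to 0.0886 (hydrogel 2, 3 or 4, or liquid 1, 3 or 4 left out). It stood at 0.0015 without liquid 2, where the log2 change was 1.60. With neither hydrogel 1 nor liquid 2 in the fit the log2 change was 1.82. Under the macrophage covariate it turned to −0.75 and was not called (adjusted p = 0.307).

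Nfkb2 (ENSMUSG00000025225) and Relb (ENSMUSG00000002983), the partners of the noncanonical route, rose by nearly the same factor. Nfkb2 stood at 18.2, 27.1, 30.4 and 25.8 CPM in hydrogel 1 to 4 and at 13.4, 15.4, 14.4 and 12.9 CPM in liquid 1 to 4. No hydrogel library fell within the liquid range, and the 4 liquid libraries were close together. The log2 change was 0.85 ± 0.15 SE (1.81-fold; adjusted p = 0.0022 by edgeR), and this call held in each of the 8 omissions of a single library. For Relb the hydrogel libraries stood at 4.82, 9.31, 8.83 and 8.90 CPM and the liquid libraries at 4.33, 5.49, 4.25 and 3.67 CPM. Hydrogel 1 lay inside the liquid range, and the other 3 hydrogel libraries were tightly grouped above it. Its log2 change was 0.84 ± 0.22 SE (1.80-fold; adjusted p = 0.0170), and the call was lost without hydrogel 2 (0.0563), hydrogel 3 (0.0505) or liquid 4 (0.0547). In the fit that lacked hydrogel 1 and liquid 2 the log2 changes were 1.05 for Nfkb2 and 1.16 for Relb. Adjusted for the macrophage score they were 0.22 and −0.24, and neither was called (adjusted p = 0.720 and 0.785). Part of the annotated Nfkb2 exon sequence, 11.6%, lies opposite the noncoding gene AC114539.1. That gene was at 3.99 ± 0.307 CPM in hydrogel and 5.78 ± 0.580 CPM in liquid, and the strand setting of the counting is not given in the sources used here.

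Nfkb1 (ENSMUSG00000028163), whose precursor is processed to the DNA-binding partner of Rela, rose by a smaller factor from a higher level. Hydrogel 1 to 4 stood at 88.3, 98.9, 99.8 and 91.1 CPM and liquid 1 to 4 at 76.5, 86.4, 64.8 and 64.8 CPM. The groups were separated only narrowly, with liquid 2 just under hydrogel 1. The log2 change was 0.37 ± 0.10 SE (1.29-fold; adjusted p = 0.0185 by edgeR). It lost its call without hydrogel 2 (adjusted p = 0.0567), hydrogel 3 (0.0552) or liquid 4 (0.0552), reached 0.51 without both hydrogel 1 and liquid 2, and was 0.0057 and not called (0.993) with the macrophage covariate.

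Rela (ENSMUSG00000024927), the main transactivating subunit of the canonical pair, was the member with the smallest change. Its libraries stood at 91.6, 99.9, 103 and 99.8 CPM in hydrogel and at 92.6, 99.2, 101 and 100.1 CPM in liquid. The 2 ranges nearly coincided. The log2 change was 0.0055 ± 0.06 SE with a 95% interval from −0.13 to 0.14 (adjusted p = 0.955 by edgeR), so a change of the size seen in Nfkb1 lies outside the interval. The coefficient of variation over the 4 libraries was 5.06% in hydrogel and 3.95% in liquid, where that of Rel was 31.4% and 53.1%.

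**Figure D2:**
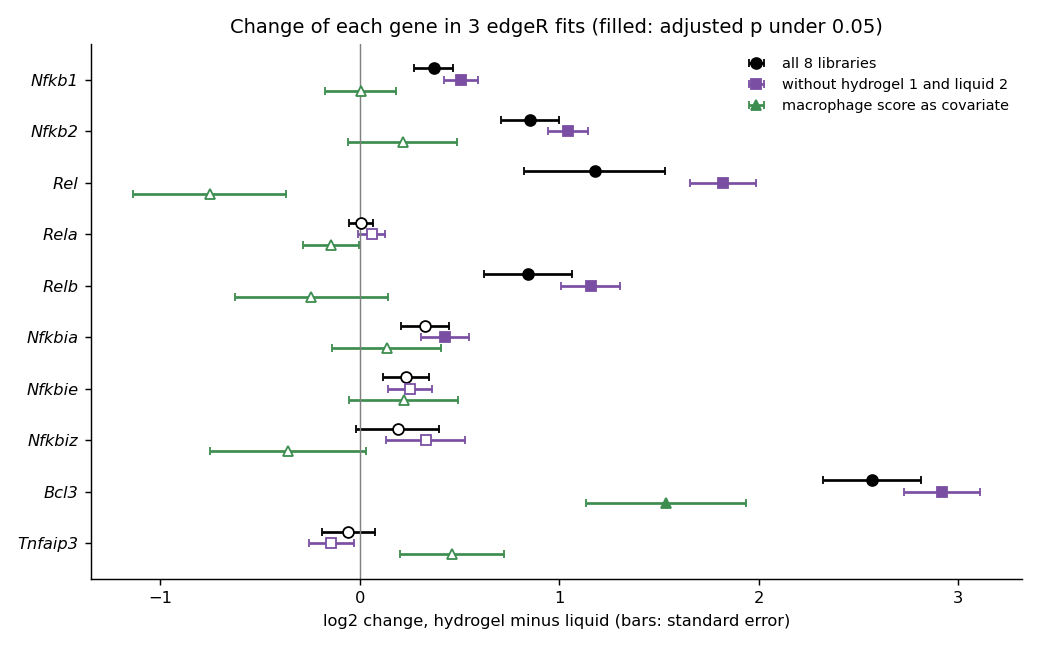
Log2 change between hydrogel and liquid (x axis; points with standard errors) for the 10 genes in 3 edgeR fits: all libraries (black), without hydrogel 1 and liquid 2 (purple), and with the macrophage marker score as a covariate (green). Filled symbols passed an adjusted p of 0.05; only Bcl3 is filled in all 3 fits, at 2.57, 2.92 and 1.54.

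Since the subunits work in pairs, their transcripts were also expressed per kb of exon and as shares of the sum of the 5. The length was the union of all annotated exons of a gene, which can exceed the length of its main transcript. It was 12.1 kb for Nfkb1 and 3.07 kb for Rela, so the size of each share depends on this choice. In CPM, before this division, Nfkb1 and Rela were at 94.5 and 98.7 in hydrogel and at 73.1 and 98.3 in liquid on average. Rela made up 74.2 ± 3.08% of this sum in liquid and 64.9 ± 2.54% in hydrogel (SD, n = 4 each), with no overlap between cultures. Nfkb2 went from 7.08 ± 0.295% to 11.1 ± 1.38%, again without overlap. Rel had a share of 2.11 ± 1.02% in liquid and 4.12 ± 1.03% in hydrogel, and Relb 2.64 ± 0.353% and 4.08 ± 0.842%. Nfkb1 had 14.0 ± 1.67% and 15.8 ± 0.772%, and for these last 3 subunits the cultures overlapped. These shares were not tested and describe transcripts, not protein.

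**Figure D3:**
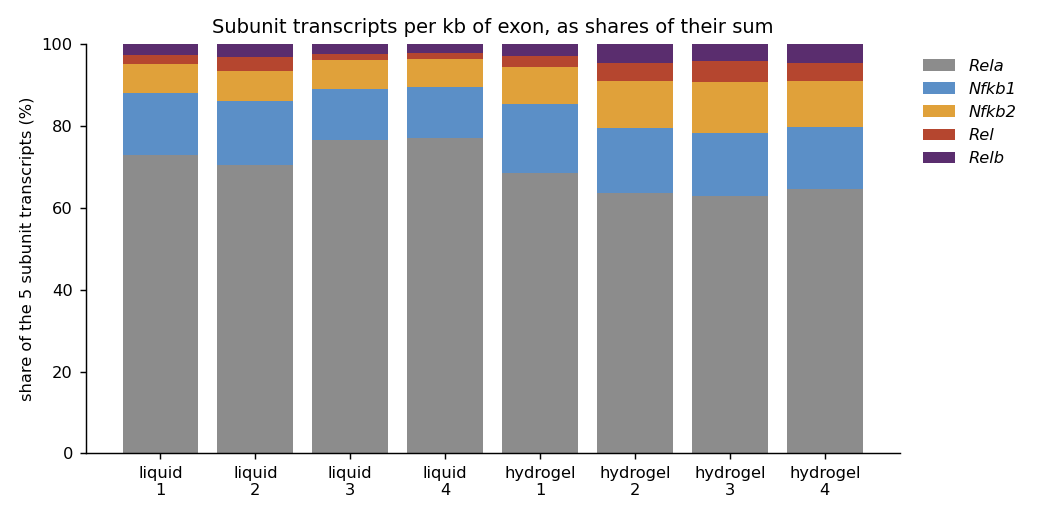
Share of each of the 5 subunit transcripts (percent of their summed level per kb of exon, y axis) in each library, stacked. Rela is the largest block in every library, at 70.4 to 76.9% in liquid and 62.9 to 68.5% in hydrogel, and hydrogel 1 lies nearest to the liquid libraries.

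Ratios between members within a library do not depend on how libraries are scaled to each other, and 3 were compared. The log2 ratio of Nfkb2 to Nfkb1 was −1.92 ± 0.25 in hydrogel and −2.37 ± 0.16 in liquid (SD, n = 4 each), a difference of 0.45 with overlapping libraries (exact two-sided permutation p = 0.0571). That of Relb to Rela was −3.68 ± 0.38 and −4.48 ± 0.25, a difference of 0.81, also overlapping (exact permutation p = 0.0571). Bcl3 to Nfkbia went from −2.74 ± 0.39 to −0.47 ± 0.23, a 4.81-fold shift in which the cultures did not overlap (exact permutation p = 0.0286, the smallest that 4 against 4 allows). Adjusted over the 3 ratios, each p was 0.0571, so no ratio passed 0.05.

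The cytoplasmic inhibitors did not pass the test. Nfkbia (ENSMUSG00000021025) encodes IkB-alpha, the inhibitor that is destroyed and resynthesised fastest. It stood at 17.3, 22.1, 24.3 and 19.6 CPM in hydrogel and at 18.7, 16.7, 16.3 and 14.6 CPM in liquid. Hydrogel 1 lay below liquid 1, and the other 3 hydrogel libraries lay above all liquid libraries. The log2 change was 0.33 ± 0.12 SE (95% interval 0.06 to 0.60; adjusted p = 0.0673 by edgeR). It passed in DESeq2 (0.0492), without hydrogel 1 (0.0232) and without both hydrogel 1 and liquid 2 (0.0125). Nfkbie (ENSMUSG00000023947), the gene of IkB-epsilon, ranged from 17.9 to 21.7 CPM in hydrogel and from 15.3 to 20.3 CPM in liquid, a log2 change of 0.23 ± 0.11 SE (95% interval −0.02 to 0.49; adjusted p = 0.155). The third classical inhibitor gene, Nfkbib, which is not among the 10, rose from 31.0 ± 2.35 to 38.6 ± 2.03 CPM (log2 change 0.32, adjusted p = 0.0131), and was not called with the macrophage covariate (0.566). The estimates of Nfkbia and Nfkbib were alike in size, with standard errors of 0.12 and 0.08.

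The nuclear IkB-like proteins work on bound NF-kB rather than in the cytoplasm, and the pair of them described here diverged. Bcl3 (ENSMUSG00000053175), which joins homodimers of the Nfkb1 and Nfkb2 products on DNA, had the largest change of the 10. It stood at 11.0, 19.1, 15.2 and 15.4 CPM in hydrogel 1 to 4 and at 2.95, 3.58, 1.91 and 1.85 CPM in liquid 1 to 4. The lowest hydrogel library was about 3-fold above the highest liquid library, and hydrogel 1 and liquid 2 were again the libraries nearest to the other culture. The log2 change was 2.57 ± 0.25 SE (adjusted p = 0.000222 by edgeR), between 2.44 and 2.77 when any single library was omitted. In the fit that lacked hydrogel 1 and liquid 2 it was 2.92. Adjusted for the macrophage score it was 1.54 ± 0.40 SE with an adjusted p of 0.0479, the only call among the 10 in that fit, where 2.34% of all tested genes were called higher. Part of its exon sequence, 6.5%, lies opposite an annotated antisense gene, Gm16175, which was not analysed here.

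Nfkbiz (ENSMUSG00000035356), which encodes IkB-zeta, a cofactor for a subset of inflammatory genes, did not pass. It stood between 5.09 and 6.41 CPM in hydrogel and between 3.31 and 6.90 CPM in liquid, so that both extremes of its range were liquid libraries. Its log2 change was 0.19 ± 0.21 SE (95% interval −0.27 to 0.65; adjusted p = 0.527 by edgeR). The interval of Bcl3, from 2.02 to 3.12, lies wholly above that of Nfkbiz.

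Tnfaip3 (ENSMUSG00000019850) encodes A20, the ubiquitin-editing enzyme that stops signalling upstream of the IKK kinases. Hydrogel libraries stood at 28.5, 28.3, 30.8 and 27.5 CPM and liquid libraries at 30.1, 23.2, 38.1 and 28.4 CPM. The hydrogel values lay within the wider liquid range. The log2 change was −0.06 ± 0.13 SE (95% interval −0.35 to 0.24; adjusted p = 0.782 by edgeR), and it was 0.46 with the macrophage covariate without passing (0.367).

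In order of level per kb of exon, Rela was highest in both cultures (32.1 ± 1.62 CPM per kb in hydrogel, 32.0 ± 1.26 in liquid), followed by Nfkbia (12.9 ± 1.89 in hydrogel and 10.3 ± 1.04 in liquid) and Nfkb1 (7.84 ± 0.470 and 6.06 ± 0.862). Neither Rela and Nfkbia nor Nfkbia and Nfkb1 overlapped in either culture. That compares libraries only and leaves out the uncertainty of the exon lengths, 12.1 kb for Nfkb1 and 1.61 kb for Nfkbia. In CPM, Nfkb1 was above Nfkbia (means of 94.5 and 20.8 in hydrogel, 73.1 and 16.6 in liquid), so the order between genes holds on this scale only. In liquid, Nfkb1, Nfkbie, Tnfaip3 and Nfkb2 followed each other with overlapping neighbours. Relb, Bcl3, Nfkbiz and Rel formed the lowest group there, all between 0.924 and 1.14 CPM per kb on average and overlapping from neighbour to neighbour. In hydrogel Bcl3 left that group and, at 6.12 ± 1.34 CPM per kb, overlapped with its neighbours Nfkbie (6.71 ± 0.573) and Nfkb2 (5.53 ± 1.12). Rel, Relb and Nfkbiz were the 3 lowest in hydrogel.

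Across the 8 libraries, the genes of the table with the most similar pattern to Nfkb2 were Nagpa, Cln3 and Ctsz (Pearson r of log2 CPM 0.998, 0.996 and 0.996). For Rel they were Lfng (0.998), Fmnl1 (0.995) and the macrophage marker Itgam (0.996). Relb was nearest to Tusc1 (0.983), Arhgap26 (0.981) and Klf2 (0.979), Nfkb1 to Egln1 (0.992), Hk2 (0.988) and Mical1 (0.986), and Bcl3 to Prpf31 (0.995), Nfil3 (0.994) and Klhl5 (0.994). These are the closest of 10322 genes over only 8 points that share the culture contrast, so they are a description.

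**Figure D4:**
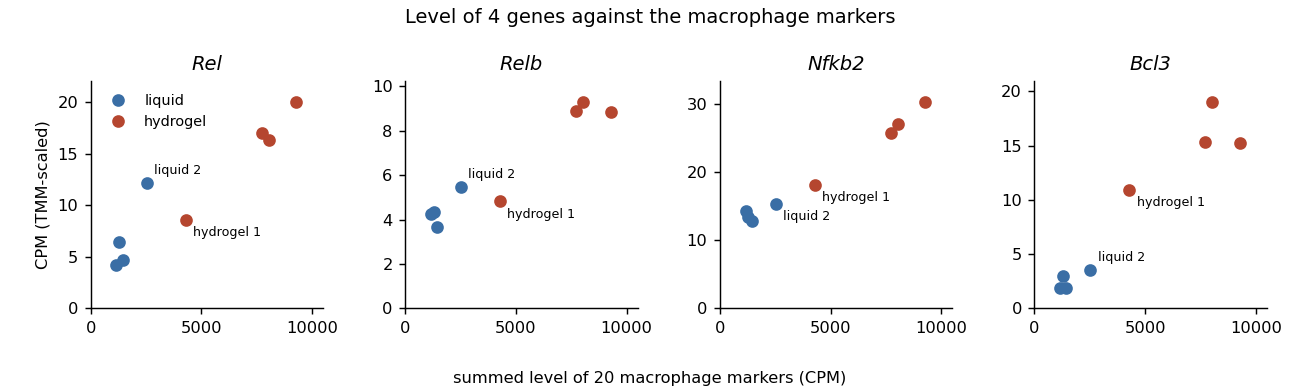
Level of Rel, Relb, Nfkb2 and Bcl3 (y axes, CPM) against the summed level of the 20 macrophage markers (x axes, CPM) in the 8 libraries. Hydrogel 1, at 4288 CPM of markers, and liquid 2, at 2523 CPM, lie between the other libraries; Rel in liquid 2 (12.2 CPM) is above Rel in hydrogel 1 (8.63 CPM), whereas Bcl3 in liquid 2 (3.58 CPM) is far below Bcl3 in hydrogel 1 (11.0 CPM).

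The macrophage markers moved with all 5 genes that rose: Nfkb1, Nfkb2, Rel, Relb and Bcl3 were each lower in hydrogel 1 than in the other hydrogel libraries and higher in liquid 2 than in the other liquid libraries. The same libraries also stood apart for other cell types. Summed neutrophil markers were at 390 CPM in hydrogel 1 (783 to 918 in the other hydrogel libraries) and at 1736 CPM in liquid 2 (396 to 968 in the other liquid libraries). Mast cell and basophil markers were lowest in hydrogel 1 and highest in liquid 2 within their cultures. Megakaryocyte markers ran the other way, highest of the hydrogel libraries in hydrogel 1 (41380 CPM) and lowest of the liquid libraries in liquid 2 (34277 CPM). The part of macrophage RNA in these results was not tested beyond the fits above, and that of the other cell types was not tested. Of 10 tested neutrophil markers 2 rose and 1 fell, 5 of 6 tested mast cell and basophil markers fell, and 5 of 7 tested dendritic cell markers fell. Summed levels were 390 to 918 CPM in hydrogel and 396 to 1736 CPM in liquid for neutrophils, 46.6 to 96.8 and 81.3 to 260 CPM for mast cells and basophils, and 86.8 to 88.8 and 100.1 to 135 CPM for dendritic cells. Most of the dendritic cell sum came from Tcf4 and Bst2, which did not pass. Their means were 57.1 and 21.2 CPM in hydrogel and 63.7 and 18.9 CPM in liquid.

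The rest of the pathway was followed with 112 further genes in 7 lists, of which 101 were tested. Of these, 41 rose and 15 fell, where 15.1% of all tested genes rose and 14.1% fell. The part that fell was thus near that of all tested genes. Counts of each list below are to be read beside the same shares. The receptor list had the largest median of the 7. Of 15 tested receptors that signal to NF-kB, 10 rose and 2 fell, and the median log2 change was 1.26. Adjusted for the macrophage score the median was −0.28, the only receptor gene edgeR then called was 1 lower, and the ligand list then had the largest median (1.24, with 3 higher). Tlr2, which senses bacterial lipoproteins, was at 8.89 ± 2.37 CPM in liquid and rose to 38.6 ± 9.17 CPM (SD, n = 4 each; adjusted p = 0.000283 by edgeR). Tnfrsf1b, a receptor for tumour necrosis factor, rose from 67.2 ± 36.4 to 323 ± 98.0 CPM (0.00149). Ltbr, a receptor that feeds the noncanonical route, rose 2.17-fold and the lipopolysaccharide receptor gene Tlr4 1.75-fold. The 2 that fell, named after their values were seen, were the interleukin-1 and interleukin-33 receptor genes Il1r1 (log2 change −0.96) and Il1rl1 (−1.45). Il1rl1 lost its call without hydrogel 1, hydrogel 2, hydrogel 4 or liquid 4 (adjusted p from 0.0553 to 0.0819). It also lost it without both hydrogel 1 and liquid 2 (0.0643), with the replicate block (0.0669) and in limma-voom (0.106). With the macrophage covariate Il1rl1 was called at −3.27 (adjusted p = 0.00786 by edgeR), while Il1r1 was not called (0.131). Il1rl1 is also among the mast cell and basophil markers that fell. Of 6 tested ligand genes 4 rose, with a median of 0.79. Tnf rose from 1.97 ± 0.628 to 8.35 ± 2.04 CPM, Il1b from 27.7 ± 3.71 to 48.0 ± 2.29 CPM and Il1a from 28.2 ± 5.47 to 48.4 ± 6.52 CPM. Il18 went from 0.254 ± 0.342 to 2.10 ± 0.806 CPM, and its log2 change of 2.99 became 4.57 without liquid 4.

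Between receptor and inhibitor, the medians were nearer to 0. Of 14 kinases 6 rose and 8 did not pass, with a median log2 change of 0.19. Irak2, a kinase of the interleukin-1 and Toll-like receptor complex, rose 1.91-fold, and Map3k8, a kinase bound by the Nfkb1 precursor, rose 3.07-fold from 1.23 ± 0.624 CPM. Tbk1 and Ripk1 rose 1.34-fold and 1.27-fold. The 3 IKK subunit genes, named like Map3k14 after their values were seen, did not pass: Chuk had a log2 change of −0.10, Ikbkb of 0.21 and Ikbkg of −0.16. Map3k14, the kinase that starts the noncanonical route, was at 0.71 ± 0.32 SE and did not pass either (adjusted p = 0.121 by edgeR). Without both hydrogel 1 and liquid 2, Ikbkb (0.32), Ikbkg (−0.36) and Map3k14 (1.16) passed, as they did without liquid 2 alone. Ikbkb also passed without hydrogel 1, and Ikbkg was at 0.71 and called higher with the macrophage covariate (adjusted p = 0.0386). Of 18 adaptor and TRAF genes 6 rose and 1 fell, with a median of 0.07: Card9 rose 1.55-fold, Tirap 1.79-fold and Myd88 1.22-fold, and Traf5 fell by 0.80 on the log2 scale. Without liquid 2, 2 adaptor genes were called lower.

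Among 17 ubiquitin ligases and feedback genes, 5 rose and 5 fell, and the median was −0.0077. Those that fell numbered 3 without hydrogel 2, hydrogel 4 or liquid 4. The A20-binding protein genes moved apart: Tnip3 rose from 3.82 ± 1.15 to 12.5 ± 4.12 CPM and Tnip1 from 50.03 ± 4.65 to 75.1 ± 8.59 CPM, while Tnip2 fell from 39.0 ± 4.94 to 27.7 ± 1.29 CPM. Otulin, which removes linear ubiquitin chains, fell from 80.6 ± 5.40 to 55.1 ± 3.74 CPM.

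Published target genes of NF-kB did not move in 1 direction. Of 29 tested, 9 rose, 7 fell and 13 did not pass, and the median was 0.14 on the log2 scale. Those that fell numbered 4 without hydrogel 2 or hydrogel 3. The acute-phase gene Saa3 rose by 6.87 on the log2 scale, Tnfaip2 4.77-fold, Gadd45b 3.54-fold and the death receptor gene Fas 2.13-fold. Among those that fell, named after their values were seen, were the chemokine gene Ccl22 (1.39 ± 0.776 to 0.181 ± 0.0877 CPM), the chemokine receptor gene Ccr7 (2.75 ± 1.39 to 0.415 ± 0.435 CPM) and the survival gene Bcl2l1 (315 ± 42.4 to 220 ± 28.9 CPM). Bcl2l1 was at 0.16 on the log2 scale, and not called, with the macrophage covariate (adjusted p = 0.568 by edgeR). In that fit Ccl22 (−5.46, 0.00307) and Ccr7 (−5.09, 0.0152) were still called lower. Their hydrogel levels rest on 22 and 49 reads in all. Each of the 25 named pathway genes outside the 10 that were chosen by the smallest adjusted p kept its call in all 8 omissions of a single library. All 25 also kept it when hydrogel 1 and liquid 2 were both left out. That choice favours calls that hold, so this describes these genes and is no check on the lists. Adjusted for the macrophage score, 7 of the 101 were called higher and 9 lower, beside 324 higher and 279 lower of all 13845 tested genes. In that edgeR fit 3 of the 25 kept their call: Il1a (log2 change 1.70, adjusted p = 0.000335), Il1b (1.18, 0.00587) and Saa3 (4.66, 8.56e-05).

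**Figure D5:**
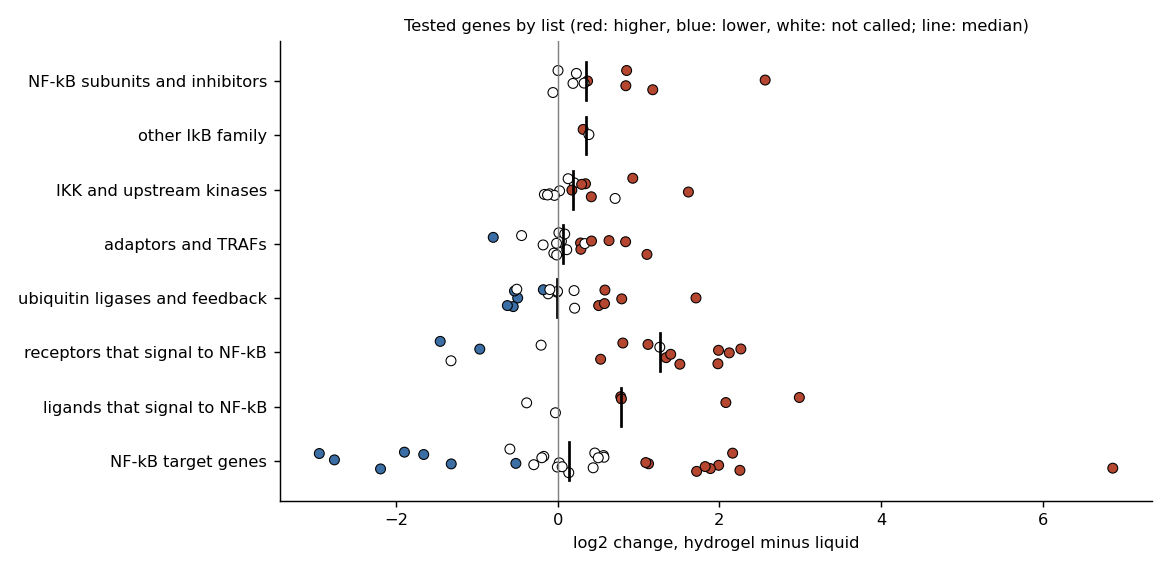
Log2 change between hydrogel and liquid (x axis) of every tested gene in the 10 NF-kB genes and the 7 pathway lists (rows), with the median as a vertical line. Receptors and ligands sit furthest to the right, at medians of 1.26 and 0.79, and the target genes spread on both sides of 0.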

How the data were processed

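Messenger RNA was measured in 8 libraries of mouse megakaryocytes, 4 per culture. The values are raw counts per gene, deposited by the authors as whole numbers without normalization. The tools named per the submitters' processing notes are STAR 2.7.10b, HTSeq 0.13.5 and bcl2fastq, with build GRCm39. Which annotation and strand setting the counting used is not given in the sources used here. The table held 2 rows naming no gene, which were left out. Symbols were matched by identifier (26534 of 27679). Exon lengths, the union of all annotated exons of a gene, came from GENCODE of another build.

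Low-count genes were removed with filterByExpr and libraries scaled by TMM. The quasi-likelihood test of edgeR 4.0.16 (in R 4.3.3) then had culture as its only term, with Benjamini-Hochberg adjustment over 13845 genes at 0.05. CPM are TMM-scaled, and log2 CPM used a prior count of 2. A standard error is the log2 change divided by the square root of F. Ratios were tested by exact permutation (scipy 1.17.1). Scripts were tested on simulated data.

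Sample titles gave the groups and replicate numbers. Alternatives were other scalings and filters, DESeq2 1.42.0, limma-voom (limma 3.58.1), a replicate block, a stricter threshold and single omissions. The 10 genes and the lists were chosen with earlier results of these data known. Named were all 10 members, up to 4 passing genes of each list by smallest adjusted p, genes whose text says that they were named after their values were seen, and the 3 genes most like each passing member (mean of at least 2 CPM; no predicted genes, Rik clones or pseudogenes). Libraries of a culture differed beyond sampling noise, so none was counted as a duplicate.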

Additional observations from a re-analysis of the deposited data

Results flagged for a closer look

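Relb in hydrogel had 1 library far from the other 3: hydrogel 1 stood at 4.82 CPM where the others stood at 8.83 to 9.31 CPM, and the gap was 0.894 of the whole range. The log2 ratio of Relb to Rela was likewise low in hydrogel 1, at −4.25 against −3.55 to −3.42 in the other hydrogel libraries (0.848 of the range). Both gaps exceed Dixon's critical value for 4 values at the 95% level. In all, 26 groups of 4 values were examined, and chance flags about 1 in 20. The same library had the lowest summed macrophage marker level of the hydrogel libraries, 4288 CPM; its part in these values was not tested.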

How the results depend on the processing

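Directions and calls of Nfkb2 and Bcl3 were the same under each alternative scaling, filter and tool and each single omission. Single omissions gave log2 changes of 0.32 to 0.46 for Nfkb1, 0.997 to 1.60 for Rel, 0.76 to 1.03 for Relb and 0.25 to 0.41 for Nfkbia, with 2 to 6 of the 10 genes higher (2 without hydrogel 2, hydrogel 3 or liquid 4). They gave 1476 to 2529 genes higher and 1224 to 2446 lower among all genes, and 34 to 47 higher and 9 to 18 lower among the other pathway genes. Each omission leaves fewer samples. At an adjusted p of 0.01, 2 of the 10 genes, 1180 genes in all higher and 911 lower, and among the other pathway genes 31 higher and 7 lower, passed.

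Nfkbia passed with DESeq2 (log2 change 0.33) and without both hydrogel 1 and liquid 2 (0.43); the cause was not tested. With the macrophage covariate, chosen after seeing the data like that omission, the log2 changes were 0.0057 for Nfkb1, 0.22 for Nfkb2, −0.75 for Rel and −0.24 for Relb. In that fit 1 of the 10 genes was called higher, 324 genes in all were higher and 279 lower, and 7 other pathway genes were higher and 9 lower; the cause was not tested. Upper-quartile scaling gave 1755 genes higher and 2492 lower, and library totals alone 2280 and 1513.

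Replicate numbers were not taken to pair the libraries: deviations from the culture means correlated at 0.22, 0.33, −0.13 and 0.10 for numbers 1 to 4, so not every pair was positive, and not every library correlated best with its own number. With the replicate block 5 of the 10 genes were higher, with log2 changes of 0.38 for Nfkb1, 0.84 for Nfkb2, 1.23 for Rel, 0.82 for Relb and 2.58 for Bcl3, and the 3 ratio differences had exact sign-flip p of 0.125, the smallest possible. Depth limits Relb and Bcl3 most among the called genes, with 634 and 358 reads over the 4 liquid libraries.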
